A study of Mus musculus with 24 samples.

Results

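The FGF and ERK pathway genes described here were Fgf4, Fgfr1, Fgfr2, Spry2, Spry4, Spred1, Dusp6, Etv4, Etv5 and Egr1. Their members were the ATAC-seq intervals that overlapped the body of 1 of these 10 genes extended by 20 kb on each side, in mm10 (GRCm38) coordinates. The rule that takes intervals by position uses no measured value. The windows held 197 of the 299780 intervals in the table of untreated cells and 176 of the 272268 intervals in the table of treated cells. Each of these intervals was 201 bases wide, and none lay in the windows of 2 of the genes.

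ATAC-seq counts the places where the Tn5 transposase can insert sequencing adapters, so its values describe open chromatin and not the RNA or protein of a gene. E14, a mouse embryonic stem cell line, was kept on gelatin in serum with leukaemia inhibitory factor (LIF), a cytokine that sustains self-renewal. Wild-type cells (WT) were compared with 2 knockout (KO) lines of Smad2, named Smad2_KO1 and Smad2_KO2. Smad2 carries signals of Nodal and activin from their receptors to the nucleus. Each line was sampled untreated (Ctrl) and after 12 hours in 200 nM INK128, an inhibitor of the growth-controlling kinase mTOR, which the labels describe as inducing pausing (Paused). Each of the 6 groups had 4 libraries of 50000 live cells, 24 libraries in all. How the knockouts were made, whether a KO line is 1 clone and whether the libraries of a group came from separate cultures are not given in the sources used here. P-values therefore measure the spread between these libraries.

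Fibroblast growth factors bind receptor tyrosine kinases, which act through adaptors, Ras and the kinases Raf, Mek and Erk. In mouse embryonic stem cells Fgf4 is the main ligand that the cells make themselves, and Erk activity moves them out of self-renewal toward lineage commitment. Sprouty and Spred proteins and the phosphatase Dusp6 are induced by the pathway and restrain it. Etv4, Etv5 and Egr1 are transcription factors whose genes respond to Erk.

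Promoter sequence is shown for Dusp6, Etv5 and Fgf4, because in these 3 genes a strong interval lay over the bases just before the gene start. The RefSeq table of GRCm38.p6 matched 7 promoters of 6 of the 10 genes, namely Dusp6, Etv5 with 2 starts, Fgf4, Fgfr2, Spred1 and Spry2. Each line gives the 250 bases before the gene start from 5′ to 3′ on the strand of the gene. Capitals mark the bases inside the Ctrl interval, 144 bases for Dusp6, 192 for Etv5 and 201 for Fgf4. Dusp6 lies on the plus strand (chr10:99262981-99263230), Etv5 on the minus strand (chr16:22439571-22439820) and Fgf4 on the plus strand (chr7:144861136-144861385). The Spred1, Fgfr2 and Spry2 promoters and the other Etv5 start had no interval over these windows.
Dusp6: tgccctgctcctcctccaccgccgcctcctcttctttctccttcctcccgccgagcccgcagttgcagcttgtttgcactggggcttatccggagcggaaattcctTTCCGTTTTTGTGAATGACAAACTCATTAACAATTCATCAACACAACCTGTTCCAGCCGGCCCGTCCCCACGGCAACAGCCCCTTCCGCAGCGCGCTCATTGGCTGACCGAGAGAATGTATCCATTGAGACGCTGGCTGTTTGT
Etv5: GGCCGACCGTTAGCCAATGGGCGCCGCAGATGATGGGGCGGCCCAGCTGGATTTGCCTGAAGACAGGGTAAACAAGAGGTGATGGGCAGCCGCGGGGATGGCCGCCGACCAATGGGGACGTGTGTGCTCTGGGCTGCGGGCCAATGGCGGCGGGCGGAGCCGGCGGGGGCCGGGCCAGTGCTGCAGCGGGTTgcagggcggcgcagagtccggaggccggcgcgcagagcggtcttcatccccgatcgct
Fgf4: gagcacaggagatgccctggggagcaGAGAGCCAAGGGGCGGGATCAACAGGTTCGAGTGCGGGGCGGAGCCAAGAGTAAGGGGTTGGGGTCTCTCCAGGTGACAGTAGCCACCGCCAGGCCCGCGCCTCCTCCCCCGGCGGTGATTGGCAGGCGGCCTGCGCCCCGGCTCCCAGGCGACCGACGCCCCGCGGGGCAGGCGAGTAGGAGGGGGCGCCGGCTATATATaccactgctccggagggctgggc
The letters GGCGCC, a sequence that Smad proteins can bind, occurred in 3 of the 7 promoters on either strand. They stood 231 bases before the start of Etv5, 39 before that of Fgf4 and 37 before that of Spred1. Of all 32544 promoters in the table, 11.94% held them. The ETS letters CCGGAAG, the Smad letters CAGACA, the FOXH1 letters AATCCACA, the octamer ATGCAAAT, the SOX letters CATTGTT and the CArG box occurred in 0 of the 7. They occurred in 8.91%, 20.85%, 0.854%, 1.75%, 3.71% and 1.64% of all promoters. These are matches of letters in windows of 300 bases, 250 before and 50 after each start, and not measured binding.

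The values are normalized reads, that is the reads in an interval divided by 1 factor per library. Reads in the deposited intervals came to 11772458 to 16525762 per Ctrl library and 11456986 to 20007829 per Paused library. In Paused, Smad2_KO1 had 14946853 to 17115069 reads and WT 11456986 to 14763067, so depth and line moved together there, and its part in the results was not tested. The Paused libraries Smad2_KO1 replicate 2 and Smad2_KO2 replicate 2 carry the labels of different lines, but their reads agreed within sampling noise. Their chi-square per degree of freedom was 1.0013, with an upper limit of 1.0055 for sampling alone, against 1.0161 to 1.2698 for the other same-numbered pairs of the KO lines over both tables. Paused results are therefore also given without these 2 libraries. The strongest interval inside Smad2 held 301 to 398 normalized reads in the 8 untreated KO libraries and 313 to 410.2 in WT, which does not check the knockout labels, since accessibility does not report an edit. All 8 embryonic stem cell markers examined (Pou5f1, Sox2, Nanog, Esrrb, Klf4, Zfp42, Tbx3 and Dppa4) had an interval, and their strongest intervals averaged 44.9 to 515 normalized reads in Ctrl. Markers of primitive endoderm, trophoblast, neural cells and fibroblasts had intervals too (medians 186, 77.8, 213 and 81.8). The stem cell markers had a higher median (314), but the range of each other type overlapped theirs, so these intervals do not separate cell types. In bulk libraries, fewer cells of a type and less accessibility per cell cannot be told apart.

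In untreated cells the intervals of the FGF and ERK genes that differed between the KO lines and WT were lower, with 1 exception. An interval was called when it differed from WT in both KO lines in the same direction, each with a limma p adjusted over all tested intervals of the table under 0.05. Of the 192 Ctrl intervals with enough reads to test (at least 10 normalized reads in 4 libraries), 13 were called, 12 lower and 1 higher. The 12 lower intervals lay at Fgfr2 (4), Fgfr1, Spred1, Dusp6 and Etv5 (2 each), and the higher one lay beside Etv5. Over all 282089 tested Ctrl intervals 7.15% were called, 3.95% higher and 3.2% lower, so the share called among these genes (6.77%) was near the background. The direction of calls went with level over all Ctrl intervals. Lower calls made up 36.1% at means under 50 normalized reads, 52.2% at 50 to 100 and 75.6% at 100 or more. Among these genes 5 of 6, 3 of 3 and 4 of 4 calls at those levels were lower. The part of level in the direction was not tested. Under median-of-ratios size factors 0 of the 192 were called higher and 13 lower, where 7.58% of all intervals were called. The share of higher calls over all intervals fell from 55.2% to 37.4%. With the 8 KO libraries as 1 group 26 of the 192 were called, 9 higher and 17 lower. Over all Ctrl intervals that setting called 17.6%, of which 61.2% were higher. No interval of Fgf4, Spry2, Spry4, Etv4 or Egr1 was called in Ctrl. The median log2 change of the 192 intervals was -0.02, against 0.08 over all intervals. The KO libraries all lay above all WT libraries at 2 of the 192 intervals and all below at 13, together 7.81%, against 7.48% of all Ctrl intervals.

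In Paused cells the calls went both ways, and each of the 10 genes had at least 1. Of 171 tested intervals, 24 were called, 9 higher and 15 lower, which is 14% against 13.9% of all 260539 tested intervals. The higher intervals beside Etv4 and at Fgfr2 had enough reads to be tested only through the KO libraries. Over all Paused intervals 9.01% were called higher and 4.92% lower. At means under 50, 50 to 100 and 100 or more normalized reads, 18.4%, 43.3% and 83.8% of all Paused calls were lower. Among these genes 4 of 10, 4 of 5 and 7 of 9 were. Without the replicate 2 libraries of both KO lines, 11 of the 24 remained called, 5 higher and 6 lower (6.43% of those tested), and 7.03% of all intervals were called. Under median-of-ratios size factors 7 of the 171 were called higher and 23 lower, where 14.7% of all intervals were called. The share of higher calls over all intervals fell from 64.7% to 41%. The 8 KO libraries all lay on one side of the 4 WT libraries at 18 of the 171 intervals, 7 above and 11 below, which is 10.5% against 11.5% of all Paused intervals. Leaving out each of the 12 libraries in turn kept 6 of the 13 Ctrl calls and 10 of the 24 Paused calls throughout. In Ctrl these were both Spred1 intervals, both Dusp6 intervals, 1 of Fgfr1 and 1 of Etv5. Called intervals other than the strongest, the most raised and the most lowered of a gene are described as well, and were chosen after their values were seen.

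**Figure D1:**
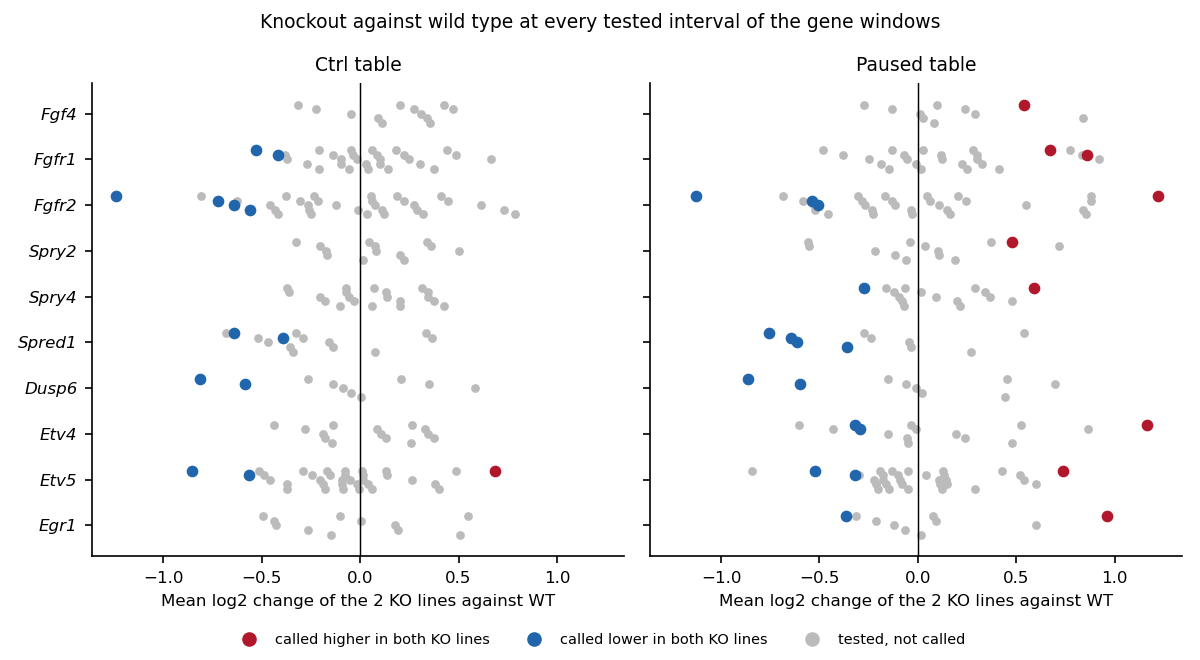
Each point is 1 tested interval, placed by the mean log2 change of the 2 KO lines against WT on the log2(value + 1) scale, with genes in rows and the 2 tables side by side. In Ctrl all but 1 of the 13 called intervals lie left of 0, while in Paused 9 of 24 lie to the right.

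The strongest interval within 1000 bases of each gene was called at Spred1 in Ctrl and at Etv4 in Paused, both lower. That is 10.0% of the 10 genes in each table, beside 7.15% and 13.9% of all intervals. All these strongest intervals but that of Fgfr2 in Paused averaged at least 100 normalized reads. Of all intervals at that level, 8.74% were called in Ctrl and 19.1% in Paused. Among those calls 75.6% and 83.8% were lower, so a lower call is the common direction for strong intervals. In untreated WT the order of these intervals ran from Etv5 with 616.5 ± 82.0 normalized reads (SD, n = 4) and Dusp6 with 571.7 ± 30.9 to Fgf4 with 247.9 ± 39.2 and Fgfr2 with 190.0 ± 10.9. Between them came Egr1 (466.3 ± 46.1), Spry2 (427.3 ± 41.6), Etv4 (386.6 ± 30.8), Spred1 (343.1 ± 16.9), Spry4 (307.3 ± 44.6) and Fgfr1 (300.6 ± 51.4). Neighbours in this order overlapped in their WT libraries, except that Dusp6 lay wholly above Egr1 and Etv4 wholly above Spred1. In Paused WT, Etv5 (718.3 ± 55.9) again came first, and Fgf4 (97.5 ± 16.0) and Fgfr2 (82.7 ± 15.7) last. At these last 2 genes the interval of the Paused table covers other bases than the interval of the Ctrl table, so its level cannot be set beside the Ctrl level.

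**Figure D2:**
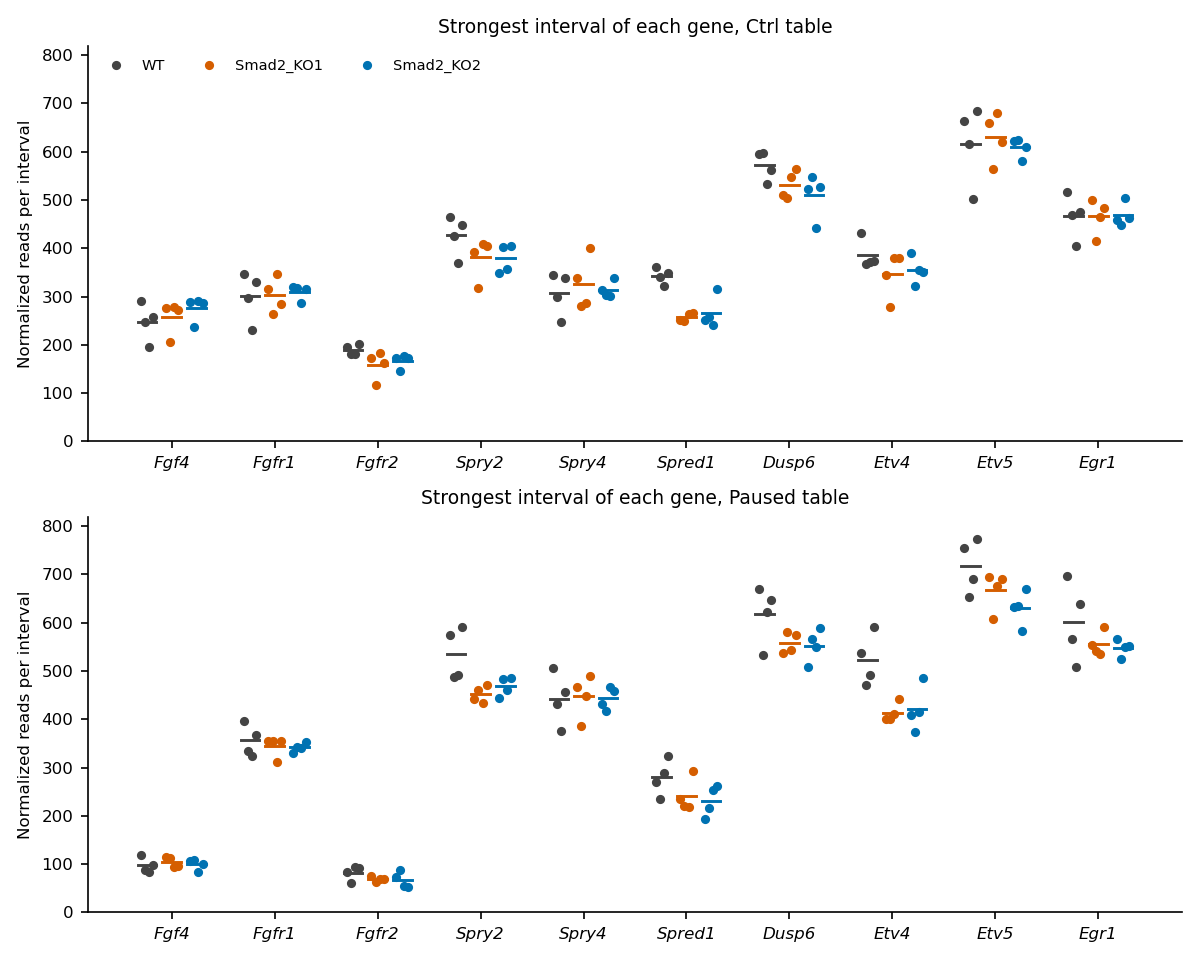
Normalized reads at the strongest interval of each gene, with 1 point per library, a bar for the mean of 4 libraries, and 1 panel per table. In the Ctrl panel all 8 KO libraries of Spred1 (240.1 to 315) lie below its WT libraries (320.9 to 361.0).

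Fgf4, the ligand, stands on chromosome 7 at 144861386 to 144865245 (gene ID 14175). Its strongest Ctrl interval ended 24 bases before the gene and held 291, 247, 196 and 258 normalized reads for WT, 276, 207, 277 and 271 in Smad2_KO1, and 289, 238, 290.03 and 287 in Smad2_KO2. The libraries of the 3 lines overlapped, and the log2 changes of 0.06 ± 0.11 in Smad2_KO1 and 0.16 ± 0.11 in Smad2_KO2 (SE, on the log2(value + 1) scale) had adjusted p = 0.764 and 0.349. Pairs of changes and p-values below follow this order of lines. Under Paused 1 interval of Fgf4 was called, 2031 bases beyond the 3′ end of the gene (chr7:144867276-144867476). It held 108, 69.8, 61.5 and 70.2 normalized reads in WT and 102 to 123 in Smad2_KO1 and 106 to 115 in Smad2_KO2. The WT library of replicate 1 reached into the range of the KO libraries, and the other 3 lay below it. The log2 change was 0.54 ± 0.13 in both lines (adjusted p = 0.00368 and 0.0037), and the call held without any 1 library and without the replicate 2 pair. None of the 12 tested Ctrl intervals of Fgf4 was called. Of them, 9 had a positive change (median 0.24), beside 166250 of all 282089 Ctrl intervals (median 0.08).

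Fgfr1, a receptor that embryonic stem cells express widely, lies on chromosome 8 at 25518759 to 25575718 (gene ID 14182). Its strongest interval, over the lower end of the gene body, was not called. In Ctrl its mean was 300.6 ± 51.4 normalized reads for WT, 303.1 ± 36.7 for Smad2_KO1 and 309.8 ± 16.1 for Smad2_KO2, with adjusted p = 0.923 and 0.768. Inside the gene an interval at chr8:25537191-25537391 fell in the untreated KO lines. It held 228, 223, 203 and 221 normalized reads for WT, 159.9, 158, 167 and 162 in Smad2_KO1, and 160.3, 146, 159 and 197 in Smad2_KO2. All 8 KO libraries were below all 4 WT libraries, and the log2 changes were -0.43 ± 0.10 and -0.41 ± 0.10 (adjusted p = 0.00407 and 0.00736). The called interval with the larger change lay 4048 bases from the gene (chr8:25514511-25514711), with 72.6 to 77.9 normalized reads in WT and 41.9 to 67.0 in the KO libraries. Its log2 changes were -0.51 ± 0.15 and -0.55 ± 0.15, and the call was lost without Smad2_KO1 replicate 1 (adjusted p = 0.119), Smad2_KO1 replicate 2 (0.0637) or Smad2_KO2 replicate 1 (0.0651).

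In Paused the interval inside Fgfr1 was not called, the other had no matching interval there, and 2 further intervals were higher in the KO lines. The one with the larger change was inside the gene (chr8:25553812-25554012), where WT held 24.8, 18.2, 18.3 and 19.9 normalized reads, Smad2_KO1 34.4 to 39.7 and Smad2_KO2 30.6 to 47.9. Every KO library exceeded every WT library, with log2 changes of 0.87 ± 0.19 and 0.85 ± 0.19 (adjusted p = 0.00116 and 0.0016). The other interval lay 6783 bases from the gene (chr8:25511776-25511976), with log2 changes of 0.61 ± 0.17 and 0.73 ± 0.17. That call was lost without Smad2_KO1 replicate 2 (adjusted p = 0.0691) and without the replicate 2 pair (0.0805).

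Fgfr2, a receptor linked to primitive endoderm and trophoblast, lies on chromosome 7 at 130162451 to 130266808 on the minus strand (gene ID 14183). It had the most called intervals of the 10 genes in Ctrl, 4 of 34, all lower. By share of tested intervals that was 11.8%, below Dusp6 (20.0%) and Spred1 (14.3%), beside 7.15% of all Ctrl intervals. The largest change at Fgfr2 was at the far end of its window, 18745 bases beyond the gene (chr7:130143506-130143706). WT held 31.0, 17.0, 39.4 and 64.7 normalized reads there, Smad2_KO1 11.1, 11.3, 17.8 and 12.7, and Smad2_KO2 11.0, 22.8, 12.8 and 15.1. WT replicates 1, 3 and 4 lay above all KO libraries, and WT replicate 2 lay among them. The log2 changes were -1.33 ± 0.27 and -1.15 ± 0.27 (adjusted p = 0.000716 and 0.00351), and the call was lost without WT replicate 4 (0.0531). The same place was lower in Paused (chr7:130143538-130143738), with log2 changes of -1.03 ± 0.27 and -1.22 ± 0.27.

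The other 3 lowered Ctrl intervals of Fgfr2 lay inside the gene, 8150, 14358 and 16539 bases downstream of its start. At chr7:130252350-130252550 WT held 73.7, 77.0, 72.3 and 61.5 normalized reads and the KO libraries 36.0 to 56.4, with log2 changes of -0.66 ± 0.16 and -0.62 ± 0.16 (adjusted p = 0.00468 and 0.00829). At all 3 intervals every KO library lay below every WT library. Their calls depended on single libraries. The one at 14358 bases was lost without Smad2_KO2 replicate 2 (adjusted p = 0.0506). The one at 8150 bases was lost without WT replicate 3 (0.0954), Smad2_KO1 replicate 1 (0.0574) or Smad2_KO2 replicate 4 (0.13). The one at 16539 bases was lost without any of 7 libraries, WT replicates 1 and 3, Smad2_KO1 replicates 1 and 3, and Smad2_KO2 replicates 2, 3 and 4 (adjusted p 0.0539 to 0.146).

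In Paused, 3 intervals of Fgfr2 were lower and 1 higher. The higher one, 58033 bases into the gene, was low throughout, with 3.24 to 19.3 normalized reads in WT and 15.0 to 24.8 in the KO libraries. In WT only replicates 2 and 3 reached 10 normalized reads, so this interval was tested only through the KO libraries. Its log2 changes of 1.37 ± 0.33 and 1.07 ± 0.33 lost their call without WT replicate 1 (adjusted p = 0.112), WT replicate 4 (0.0824) or Smad2_KO2 replicate 3 (0.0626), and in edgeR (0.0869). A lower one 2439 bases upstream of the gene held 48.5 to 100.4 normalized reads in WT and 35.2 to 57.2 in the KO libraries. Its log2 changes were -0.55 ± 0.18 and -0.53 ± 0.18, and the call was lost without WT replicates 1 or 2, Smad2_KO1 replicate 1, Smad2_KO2 replicates 1 or 2, or the replicate 2 pair (adjusted p 0.0656 to 0.205). The third lower interval, 50684 bases into the gene, lost its call in 8 of the 12 fits that left out 1 library (adjusted p 0.0554 to 0.109) and without the replicate 2 pair (0.094). In those 12 fits it kept the call without WT replicate 3, Smad2_KO1 replicate 4 or Smad2_KO2 replicates 2 or 4.

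Of the inhibitors among the 10 genes, Spred1 and Dusp6 had intervals called lower in both KO lines in both tables. Spred1, which holds back the activation of Raf by Ras, lies on chromosome 2 at 117121071 to 117182279 on the plus strand (gene ID 114715). Its strongest interval, 885 bases upstream of the gene (chr2:117119986-117120186), held 361, 341, 321 and 349 normalized reads in untreated WT. Smad2_KO1 held 252, 249, 264 and 267 there, and Smad2_KO2 252, 257, 240.1 and 315. All 8 KO libraries were below all 4 WT libraries. The log2 changes were -0.41 ± 0.09 and -0.37 ± 0.09 (adjusted p = 0.00213 and 0.00527), and no single library decided the call, with adjusted p at most 0.0307. In Paused the same place averaged 279.9 ± 37.2 in WT, 241.1 ± 34.7 in Smad2_KO1 and 231.4 ± 31.9 in Smad2_KO2, the libraries overlapped, and it was not called (adjusted p = 0.148 and 0.0624). It passed there under median-of-ratios size factors and without WT replicate 2. Whether the Ctrl and Paused changes differ was not tested.

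A second Spred1 interval was called in both tables with nearly the same change. It lay 12090 bases beyond the 3′ end of the gene (chr2:117194369-117194569). In Ctrl it held 315, 304, 285 and 295 normalized reads for WT, 182, 195, 187 and 202 in Smad2_KO1, and 211, 199, 159 and 202 in Smad2_KO2. Its log2 changes of -0.64 ± 0.10 and -0.64 ± 0.10 had adjusted p = 1.37e-05 and 1.41e-05. In Paused it held 204, 201, 205 and 177 in WT, 123, 109.7, 120.1 and 149.97 in Smad2_KO1, and 129.8, 116, 127 and 154 in Smad2_KO2. The KO and WT libraries stood apart here too, with log2 changes of -0.65 ± 0.11 and -0.58 ± 0.11 (adjusted p = 7.66e-05 and 0.000341). The call held in both tables without any 1 library, and in Paused without the replicate 2 pair.

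Over all Spred1 intervals negative changes were more frequent than positive ones. Of 14 tested in Ctrl, 11 had a negative change (median -0.33), and of 10 tested in Paused, 8 (median -0.26). Over all intervals 115839 of 282089 in Ctrl and 101780 of 260539 in Paused had a negative change. In Paused 3 further Spred1 intervals were called lower. They lay 37293 and 59627 bases into the gene and 13141 bases beyond it, and averaged 50.3, 106 and 37.7 normalized reads in WT. These 3 calls were less stable. The first was lost without Smad2_KO2 replicate 2 (adjusted p = 0.0536) or 3 (0.101). The third was lost without WT replicate 1 (0.0874), Smad2_KO1 replicate 2 (0.154), or Smad2_KO2 replicates 2 (0.0635) or 3 (0.126). The second was lost in the fits without each library other than WT replicate 2 and Smad2_KO2 replicate 2 (adjusted p 0.0503 to 0.148). None of the 3 was called without the replicate 2 pair (0.0606 to 0.162).

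**Figure D3:**
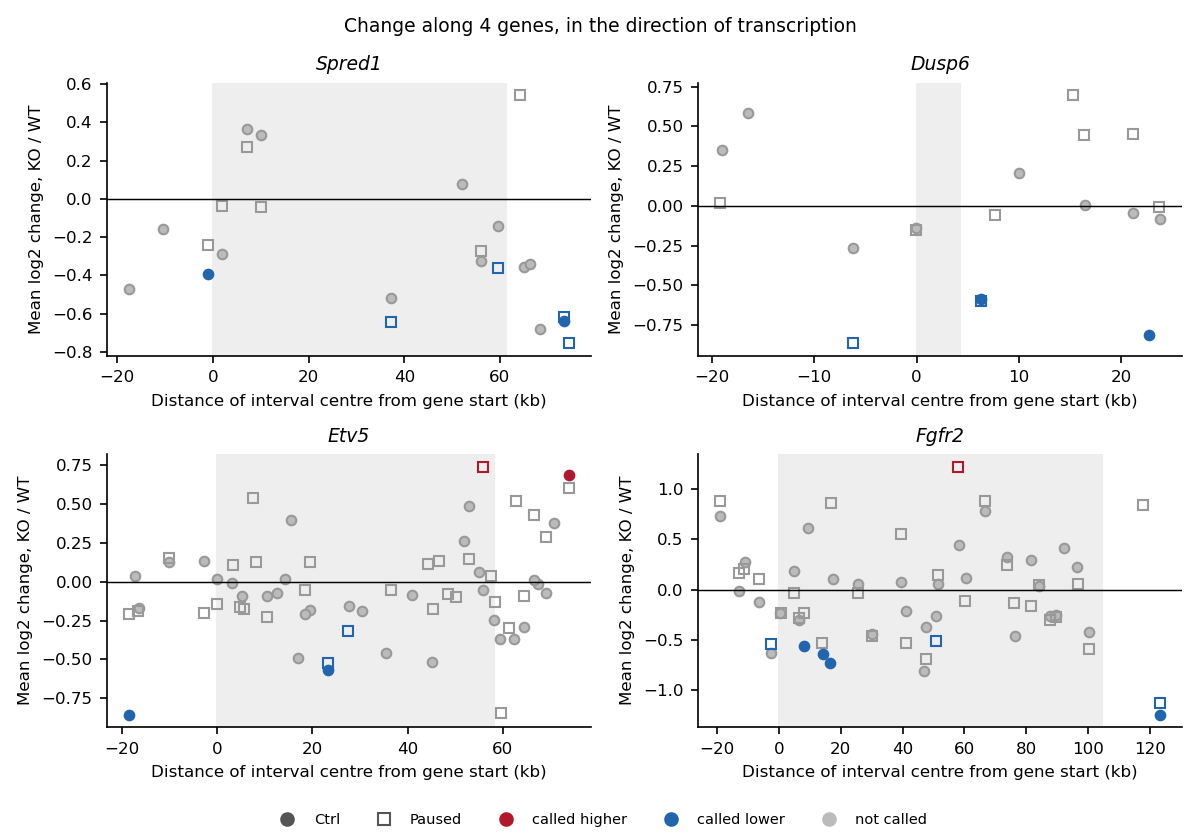
Mean log2 change of the KO lines against WT at each tested interval, plotted by the distance of its centre from the gene start in kb, with filled circles for Ctrl, open squares for Paused and grey shading for the gene body. At Spred1 the called intervals lie upstream of the gene, inside it and beyond its end, all below 0, with blue for called lower, red for called higher and grey for not called. At all 4 genes a Ctrl and a Paused call fall at the same place.

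Dusp6, a phosphatase that inactivates Erk, lies on chromosome 10 at 99263231 to 99267489 on the plus strand (gene ID 67603). The interval over its start, shown above in capitals, averaged 571.7 ± 30.9 normalized reads for WT, 531.3 ± 29.5 in Smad2_KO1 and 510.3 ± 46.2 in Smad2_KO2 in Ctrl, with adjusted p = 0.416 and 0.174. In Paused it was not called either (0.188 and 0.138), but passed under median-of-ratios size factors and without WT replicate 2. An interval 1925 bases beyond the gene (chr10:99269414-99269614) fell in both tables. In Ctrl it held 110.02, 116, 120.5 and 116 normalized reads for WT, 72.7, 83.3, 103 and 71.6 in Smad2_KO1, and 73.2, 71.9, 65.9 and 76.5 in Smad2_KO2. In Paused it held 92.8, 89.1, 102.5 and 83.4 in WT, 55.1, 52.6, 55.3 and 58.6 in Smad2_KO1, and 57.9, 75.7, 70.7 and 59.1 in Smad2_KO2. No KO library reached the lowest WT library in either table. The log2 changes were -0.49 ± 0.13 and -0.68 ± 0.13 in Ctrl (adjusted p = 0.00879 and 0.000345) and -0.72 ± 0.14 and -0.48 ± 0.14 in Paused (0.000255 and 0.0107).

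The Dusp6 interval with the largest change was a different one in each table. In Ctrl it lay 18329 bases beyond the gene (chr10:99285818-99286018), with 54.5, 48.4, 81.0 and 90.6 normalized reads in WT and 29.8 to 44.2 in the KO libraries. Its log2 changes were -0.73 ± 0.18 and -0.90 ± 0.18 (adjusted p = 0.00405 and 0.000454). In Paused it lay 6101 bases before the gene (chr10:99256930-99257130), with 34.5 to 43.7 in WT and 14.9 to 25.9 in the KO libraries, and log2 changes of -0.84 ± 0.21 and -0.89 ± 0.21 (0.00369 and 0.00248). All 4 Dusp6 calls held without any 1 library, and both Paused calls held without the replicate 2 pair.

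The Sprouty genes, whose products block receptor signalling upstream of Erk, had no called interval in untreated cells. Spry2 lies on chromosome 14 at 105891947 to 105896819 on the minus strand (gene ID 24064). Its strongest interval, 453 bases before the gene start, averaged 427.3 ± 41.6 normalized reads for WT, 380.9 ± 42.7 in Smad2_KO1 and 379.1 ± 29.4 in Smad2_KO2 in Ctrl (adjusted p = 0.23 in both). In Paused all 8 KO libraries of this interval (434.5 to 486) lay below all 4 WT libraries (487 to 591), but it passed the test in Smad2_KO1 alone (adjusted p = 0.0251 and 0.0803). It was called under median-of-ratios size factors and without WT replicates 2 or 3. Inside Spry2 an interval was higher in Paused KO cells (chr14:105893111-105893311), with 105, 74.1, 91.7 and 107 normalized reads in WT and 108 to 170.2 in the KO libraries. Its log2 changes of 0.44 ± 0.13 and 0.52 ± 0.13 (adjusted p = 0.0128 and 0.00398) lost their call without WT replicate 2 (0.062), Smad2_KO1 replicate 2 (0.069), the replicate 2 pair (0.065), and under size factors (0.0585).

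Spry4 lies on chromosome 18 at 38586247 to 38601347 (gene ID 24066). In Paused cells an interval inside the gene (chr18:38590238-38590438) rose in both KO lines. It held 148, 133, 127 and 159 normalized reads for WT, 213, 230.2, 200.4 and 202 in Smad2_KO1, and 211, 262, 184 and 212 in Smad2_KO2. Every KO library was above every WT library, the log2 changes were 0.57 ± 0.11 and 0.61 ± 0.11 (adjusted p = 0.000184 and 0.0001), and the call held without any 1 library (at most 0.00231). A strong interval 9819 bases from the gene (chr18:38576228-38576428) was lower, with 335 to 396 in WT and 262 to 317 in the KO libraries. Its log2 changes of -0.28 ± 0.09 and -0.27 ± 0.09 lost their call without WT replicate 1 (adjusted p = 0.078), Smad2_KO1 replicates 3 (0.0797) or 4 (0.0613), Smad2_KO2 replicate 1 (0.116), or the replicate 2 pair (0.0612). The strongest Paused interval, 228 bases from the gene and inside the body of Arhgap26, averaged 442.5 ± 53.4 normalized reads for WT, 447.7 ± 45.1 in Smad2_KO1 and 443.9 ± 22.8 in Smad2_KO2.

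The target genes Etv4, Etv5 and Egr1 had 3 called intervals of 59 in Ctrl and 8 of 57 in Paused, which are 5.08% and 14.0%, near the 7.15% and 13.9% of all intervals. Etv5 lies on chromosome 16 at 22381313 to 22439570 on the minus strand (gene ID 104156). Its strongest interval lay 59 bases before the gene start, had the highest mean of the 10 strongest intervals and averaged 616.5 ± 82.0 normalized reads for WT, 630.7 ± 50.8 in Smad2_KO1 and 608.9 ± 20.4 in Smad2_KO2 in Ctrl and was not called (adjusted p = 0.804 and 0.964). An interval 23213 bases into the gene was lower in both tables. In Ctrl (chr16:22416257-22416457) it held 166, 180.04, 177 and 189 normalized reads for WT, 109.4, 123, 130.2 and 132 in Smad2_KO1, and 121, 130.2, 102 and 112 in Smad2_KO2. The groups stood apart, and the log2 changes were -0.52 ± 0.11 and -0.61 ± 0.11 (adjusted p = 0.00126 and 0.000189). In Paused it held 106, 122, 147 and 158 in WT, 74.1, 76.1, 98.5 and 104 in Smad2_KO1, and 81.9, 90.7, 103 and 108 in Smad2_KO2, so 1 WT library fell among the KO libraries. The Paused log2 changes of -0.59 ± 0.13 and -0.46 ± 0.13 lost their call without WT replicate 4 (adjusted p = 0.0607) or Smad2_KO2 replicate 1 (0.0676).

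The other Etv5 calls were at weaker places or depended on single libraries. A Ctrl interval 18469 bases upstream (chr16:22458039-22458239) held 32.2 to 43.8 normalized reads in WT and 14.6 to 28.2 in the KO libraries, with log2 changes of -0.77 ± 0.23 and -0.94 ± 0.23. Its call was lost without WT replicate 3 (adjusted p = 0.0651), Smad2_KO1 replicate 2 (0.0916) or Smad2_KO1 replicate 3 (0.0903). The sole higher Ctrl interval, 15597 bases beyond the end of Etv5, held 17.2 to 29.9 in WT and 30.8 to 40.4 in the KO libraries. Its log2 changes of 0.60 ± 0.19 and 0.77 ± 0.19 lost their call without WT replicates 2, 3 or 4 or any Smad2_KO1 library (adjusted p 0.0514 to 0.118), under size factors (0.0644) and in edgeR (0.0538). In Paused the interval 27550 bases into the gene held 245 to 291 in WT and 193 to 237 in the KO libraries, and its call was lost without WT replicate 1, Smad2_KO1 replicates 2 or 3, Smad2_KO2 replicates 1 or 2, or the replicate 2 pair (adjusted p 0.061 to 0.0943). A Paused interval 55980 bases into the gene was higher, with 16.1 to 23.8 in WT and 18.9 to 42.8 in the KO libraries. It lost its call in 7 of the 12 fits that left out 1 library (adjusted p up to 0.197), those without WT replicates 1 or 2, Smad2_KO1 replicates 1, 2 or 3, or Smad2_KO2 replicates 1 or 3, and also without the replicate 2 pair (0.161) and under size factors (0.0892).

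Etv4, on chromosome 11 at 101769747 to 101785310 (gene ID 18612), had no call in Ctrl, and 2 intervals in Paused were lower. The stronger one (chr11:101772580-101772780, inside the gene) held 536, 470.2, 492 and 592 normalized reads for WT, 401, 401, 410.3 and 442 in Smad2_KO1, and 409.5, 373, 414 and 486 in Smad2_KO2. All but 1 of the KO libraries, Smad2_KO2 replicate 4, lay below all WT libraries. The log2 changes were -0.33 ± 0.08 and -0.31 ± 0.08 (adjusted p = 0.00457 and 0.00724), and the call was lost without Smad2_KO2 replicate 2 (0.0524) and without the replicate 2 pair (0.0655). The second (chr11:101785257-101785457), across the higher end of the gene, held 424 to 534 in WT and 341 to 434 in the KO libraries, with log2 changes of -0.32 ± 0.09 and -0.27 ± 0.09. It lost its call without WT replicates 1 or 4, Smad2_KO1 replicate 2, Smad2_KO2 replicates 1 or 2, or the replicate 2 pair (adjusted p 0.0565 to 0.136). A faint interval inside the neighbouring gene Dhx8, 11853 bases away, was higher, with 4.29 to 9.27 in WT and 10.4 to 20.8 in the KO libraries. All its WT libraries lay below the limit of 10 normalized reads, so it was tested only because the KO libraries were higher. Its call held without any 1 library and was lost without the replicate 2 pair (0.0503).

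Egr1, an immediate early gene on chromosome 18 at 34861207 to 34864956 (gene ID 13653), had 1 interval that fell and 1 that rose in Paused, and neither call was lost without any 1 library or without the replicate 2 pair. The interval that fell, 10827 bases from the gene (chr18:34850180-34850380), held 215, 217, 238 and 233 normalized reads for WT, 170.1, 181, 170.2 and 177 in Smad2_KO1, and 175, 182, 177 and 166 in Smad2_KO2. Its log2 changes were -0.37 ± 0.09 and -0.36 ± 0.09 (adjusted p = 0.00511 and 0.00575). The interval that rose, 2780 bases from the gene (chr18:34867736-34867936), held 18.4, 29.0, 25.9 and 18.5 in WT, 37.1 to 61.6 in Smad2_KO1 and 37.2 to 59.99 in Smad2_KO2, with log2 changes of 0.98 ± 0.19 and 0.94 ± 0.19 (0.000429 and 0.000697). At both intervals the KO libraries stood apart from the WT libraries. The strongest interval, 310 bases from the gene in Ctrl, averaged 466.3 ± 46.1, 465.8 ± 36.5 and 468.6 ± 24.9 in WT, Smad2_KO1 and Smad2_KO2.

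Summed over all intervals of a window, Spred1 stood lower in both KO lines in both tables. In Ctrl its 15 intervals summed to 1026 to 1108 normalized reads for WT, 764.3 to 879.0 in Smad2_KO1 and 723.5 to 921.9 in Smad2_KO2, with log2 changes of -0.37 ± 0.06 and -0.38 ± 0.06 (adjusted p = 3.2e-05 and 1.63e-05 over all gene windows). In Paused the log2 changes were -0.32 ± 0.06 and -0.33 ± 0.06 (0.000183 and 0.000104), and the higher adjusted p was 0.00342 without the replicate 2 pair. The Paused sums overlapped, with 772.8 to 932.2 in WT and 633.2 to 778.9 in the KO libraries. The call held in both tables without any 1 library. The window of Fgfr2 was also called in Ctrl, at -0.16 ± 0.05 in each line. That call was lost without 9 of the 12 libraries (adjusted p 0.0525 to 0.1), and held without WT replicate 4, Smad2_KO1 replicate 3 or Smad2_KO2 replicate 3. The window of Etv4 was called in Paused, at -0.24 ± 0.06 and -0.22 ± 0.06, and the call held without any 1 library and without the replicate 2 pair (0.0319). Its sums in WT (1164 to 1368) and in the KO libraries (991.4 to 1209) overlapped. Of all protein-coding gene windows, 8.39% were called in Ctrl and 27.2% in Paused, and 5.04% and 20.6% were called lower, beside 2 of 10 here in each table, all lower. The median change was -0.09 over the 10 windows in Ctrl and -0.10 in Paused, against -0.02 and -0.05 over all windows. Under median-of-ratios size factors the median of all Paused windows was -0.15 and 50.8% of them were called.

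The 2 KO lines were not told apart at these genes or at any other tested interval. In limma 0 of 192 Ctrl and 0 of 171 Paused intervals differed between Smad2_KO1 and Smad2_KO2 at an adjusted p under 0.05, and 4 in each table had an unadjusted p under 0.05. In edgeR on the recovered reads 0 passed in either table, and 5 in each had an unadjusted p under 0.05. The limma fits also called 0 of all 282089 Ctrl and 0 of all 260539 Paused intervals, so this is not particular to these genes. Over all intervals 9247 in Ctrl and 5124 in Paused had an unadjusted limma p under 0.05. A p above the threshold does not show that the lines are alike.

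To set Paused beside Ctrl, intervals of the 2 tables were joined in unique pairs that shared at least 50% of the bases of each, and values were given as RPM, the reads of an interval scaled to 1000000 reads in all matched intervals of the library. The tables were normalized separately, so these values carry no test. Among the FGF and ERK genes 121 matched pairs were tested in both tables. In WT the 4 Paused libraries all lay above the 4 Ctrl libraries at 8 pairs and all below at 17, which is 20.7% against 18.2% of all 208526 matched pairs. In Smad2_KO1 the counts were 7 and 14 (17.4% against 22.9%), and in Smad2_KO2 14 and 19 (27.3% against 20.5%). Without the Paused replicate 2 library they were 14 and 17 in Smad2_KO1 (25.6% against 27.3%) and 16 and 22 in Smad2_KO2 (31.4% against 24.6%). At 11 pairs the libraries stood apart in the same direction in all 3 lines, 3 with more reads in Paused and 8 with fewer, which is 9.09% against 6.85% of all matched pairs. Without the Paused replicate 2 libraries of both KO lines there were 3 and 9 (9.92% against 7.58%). The 11 were singled out after their values were seen.

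The Spry4 window held 2 of the 3 intervals with more reads in Paused. The one 9819 bases from the gene went from 12.6 ± 1.33 to 25.6 ± 1.44 RPM in WT, from 12.1 ± 1.91 to 21.7 ± 1.33 in Smad2_KO1 and from 11.9 ± 1.51 to 22.0 ± 1.66 in Smad2_KO2 (SD, n = 4 each), which are ratios of 2.03, 1.80 and 1.86. The one inside Spry4 had ratios of 1.44, 1.75 and 1.76 and reached 15.6 ± 0.963 and 16.2 ± 2.31 in the Paused KO lines, against 10.2 ± 0.935 in Paused WT. The third was the Fgfr1 interval inside the gene that was lower in untreated KO cells. It went from 17.7 ± 0.449 to 22.1 ± 1.43 in WT, from 13.1 ± 0.293 to 19.8 ± 0.937 in Smad2_KO1 and from 13.7 ± 1.90 to 20.2 ± 1.48 in Smad2_KO2.

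Fewer reads in Paused were found at 4 Etv5 intervals, 2 of Fgfr2, 1 of Spred1 and 1 of Dusp6. The Spred1 interval beyond the 3′ end went from 24.3 ± 0.193 to 14.1 ± 0.974 RPM in WT, from 15.6 ± 1.14 to 9.27 ± 1.29 in Smad2_KO1 and from 15.9 ± 1.59 to 9.81 ± 1.22 in Smad2_KO2, with ratios of 0.581, 0.596 and 0.618. The untreated KO libraries (13.6 to 17.2) overlapped the Paused WT libraries (12.8 to 14.9). The Dusp6 interval beyond the gene had ratios of 0.703, 0.611 and 0.828. The Etv5 interval 23213 bases into the gene had ratios of 0.663, 0.650 and 0.747, and the one 27550 bases in 0.721, 0.673 and 0.651. Ratios at the other 2 Etv5 and the 2 Fgfr2 intervals ran from 0.394 to 0.721.

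**Figure D4:**
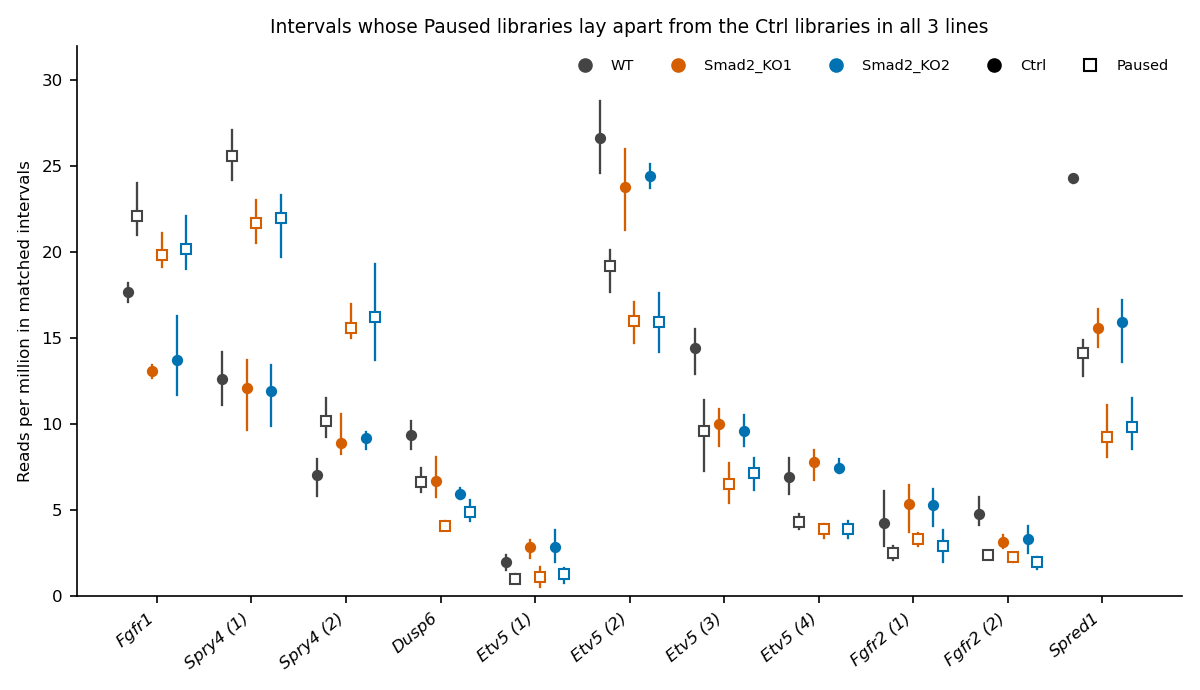
RPM within matched intervals (vertical axis, from 0) at the 11 intervals whose Paused libraries stood apart from the Ctrl libraries in all 3 lines, with filled circles for Ctrl means, open squares for Paused means colours for the lines, and bars from the lowest to the highest of 4 libraries, and with intervals of 1 gene numbered by position. The 3 intervals on the left (1 of Fgfr1, 2 of Spry4) have higher squares than circles, and the other 8 lower ones.

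Among the 121 pairs, 4 were called lower in the KO lines in both tables, at Fgfr2, Spred1, Dusp6 and Etv5, and none was called in opposite directions. Of all matched pairs 4.91% were called in the same direction in both tables and 2.32% lower in both, beside 3.31% here. In Ctrl alone 1 pair was called higher and 4 lower (4.13% against 3.28% of all), and in Paused alone 7 higher and 10 lower (14.0% against 9.98%). Whether a change differed between the treatments was not tested. The strongest intervals that could be matched mostly overlapped between the treatments. In WT the ratio of Paused to Ctrl was 0.956 at Dusp6, 1.03 at Etv5, 1.05 at Fgfr1, 1.11 at Spry2, 1.14 at Egr1 and 1.27 at Spry4, with overlapping libraries at each. At Spred1 it was 0.722 and at Etv4 1.2, and there the WT libraries of the treatments did not overlap.

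The rest of the pathway had called intervals in both directions in both tables. The windows of 47 other genes of the pathway, from ligands such as Fgf5 to targets such as Fos, held 1047 Ctrl intervals, 8 of them shared with the windows above. Of 996 tested, 22 were called higher and 18 lower (4.02% against 7.15% of all). In Paused 65 of 922 were higher and 46 lower (12.0% against 13.9%), and without the replicate 2 pair 34 and 22. Under median-of-ratios size factors the splits turned to 17 higher and 36 lower in Ctrl (5.32% against 7.58% of all), and to 43 and 106 in Paused (16.2% against 14.7% of all), so the order of the shares in Paused depends on the scaling. As summed windows, Fgf15, Il17rd and Fosl1 were lower in Ctrl and none of the 47 was higher, where 1020 of all 20258 windows were lower and 679 higher. In Paused the windows of Gab1, Sos2, Braf and Spred2 were higher and 18 were lower, with Fgf15, Il17rd and Fosl1 again among the lower ones. Of all 20119 Paused windows 4148 were lower (20.6%) and 1331 higher. The windows of the 47 genes were not fitted one by one under other scalings.

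The authors' deposited tables compare all 8 KO libraries with the 4 WT libraries at once. By the false discovery rate in the authors' deposited table, taken under 0.05, 19 of the 197 Ctrl intervals differed, 3 higher and 16 lower, where 12.2% of all Ctrl intervals did. In the authors' deposited table for Paused 37 of 176 differed, 13 higher and 24 lower, against 21.6% of all. All 13 and all 24 intervals called in both KO lines were among those of the authors' deposited tables. In the authors' deposited table the Spred1 interval beyond the 3′ end had a log2 fold of -0.61 in Ctrl (FDR 5.22e-13) and -0.59 in Paused (1.38e-08), and the Spry4 interval inside the gene 0.57 in Paused (1.36e-07).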

How the data were processed

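ATAC-seq was measured in 24 libraries, 12 per table. Per the submitters' processing notes, which state no roles or order, FastQC, Trim Galore, Bowtie2 2.4.1, MACS3 3.0.3, DiffBind 3.16.0 and mm10 were used. The authors deposited a normalized signal per interval, and how they scaled it is not given in the sources used here. From the values, each is a whole number of reads divided by 1 factor per library, within 0.0051 plus 0.01% of the value (100% of values, hardly informative in 4 libraries whose factor is close to 1). The authors also deposited a log2 fold and a false discovery rate (adjusted p-value) per interval, per the file headers.

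Limma 3.58.1 (R 4.3.3) was fitted to log2(value + 1) over the 12 libraries of a table, with line as the only term. Intervals with at least 10 normalized reads in 4 libraries were tested, and p-values were adjusted by Benjamini-Hochberg over all of them. Gene windows (body and 20 kb on each side) were summed and fitted likewise over all protein-coding genes. The fits were tested on simulated data. Alternatives used edgeR 4.0.16 on the recovered reads, size factors from DESeq2 1.42.0, other scalings, filters, pseudocounts and windows, and left out libraries. The 2 tables were normalized separately, so Paused was set beside Ctrl without a test. Named intervals were the strongest within 1000 bases of each gene and the most raised and most lowered called interval per gene and table. The genes, lists and tests were chosen with earlier results of these data known.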

Additional observations from a re-analysis of the deposited data

Results flagged for a closer look

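In 21 of 228 groups of 4 libraries, 1 library stood apart from the other 3 by Dixon's criterion at the 95% level, where chance gives about 1 in 20 (11.4 groups). Of these, 7 were replicate 2 of a KO line in Ctrl. At the strongest intervals Smad2_KO1 replicate 2 held 206.64 normalized reads at Fgf4 (others 271.46 to 277.37) and 317.67 at Spry2 (393.25 to 408.57). Smad2_KO2 replicate 2 held 237.54 at Fgf4 (286.81 to 290.03) and 146.53 at Fgfr2 (172.09 to 176.35). In summed windows, Smad2_KO1 replicate 2 had 739.17 at Etv4 (905.32 to 928.63) and 881.06 at Egr1 (994.57 to 1011.4), and Smad2_KO2 replicate 2 had 854.58 at Etv4 (937.01 to 939.96).

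In the other Ctrl groups, the strongest interval of Fgfr1 held 285.78 in Smad2_KO2 replicate 3, and that of Etv4 432.59 in WT replicate 1. The summed windows were 1140.2 at Fgf4 in Smad2_KO2 replicate 4, 1337.2 at Fgfr2 in WT replicate 4 and 966.12 at Spry2 in Smad2_KO1 replicate 3.

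In Paused, the strongest interval of Fgfr1 held 310.97 in Smad2_KO1 replicate 3 and the raised interval of Spry2 170.23 in Smad2_KO2 replicate 2. In WT replicate 4, the most lowered interval of Dusp6 held 43.7 (others 34.52 to 35.62), the raised interval beside Etv4 9.27 (4.29 to 4.32) and the Spred1 interval beyond the gene 177.46 (200.72 to 204.99). The summed windows were 1129.1 at Fgf4 in WT replicate 1, 1068.8 at Fgf4 in Smad2_KO2 replicate 4, 989.23 at Fgfr2 in Smad2_KO1 replicate 4 and 1096.4 at Fgfr2 in Smad2_KO2 replicate 2.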

How the results depend on the processing

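Called intervals numbered 9 to 14 in Ctrl (13 with all libraries) and 16 to 27 in Paused (24) when 1 library was left out. Those fits called 4.95% to 7.63% of all Ctrl and 9.68% to 15% of all Paused intervals. With the 8 KO libraries as 1 group the called intervals of these genes numbered 26 in Ctrl (9 higher, 17 lower) and 50 in Paused (26 higher, 24 lower). That setting called 17.6% of all Ctrl and 28.7% of all Paused intervals. With windows of 5 kb 8 of 118 tested intervals were called in Ctrl, beside 13 of 192 with windows of 20 kb. Without replicate 2 of both KO lines, an alternative chosen after seeing the data, 11 were called in Paused. Called gene windows numbered 1 to 2 in Ctrl and 2 to 4 in Paused when 1 library was left out, beside 4.77% to 10.3% and 19.9% to 32% of all windows. Under median-of-ratios size factors they numbered 4 and 6, where 23.4% of all Ctrl and 50.8% of all Paused windows were called. The cause of these shifts was not tested. Intervals differing between the KO lines stayed at 0 in the alternatives run. With a replicate block 13 intervals were called in Ctrl and 27 in Paused, where 7.97% and 16.2% of all intervals were called. Same-numbered libraries of different lines correlated at 0.0267 on average in Ctrl (-0.0057 to 0.1086) and 0.0525 in Paused (-0.0074 to 0.1874). Differently numbered ones correlated at -0.0089 (-0.1021 to 0.0838) and -0.0175 (-0.1337 to 0.1006). The main fits did not pair the numbers, and whether libraries of 1 number share a source was not tested. The block ended no call of a named interval.

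Changes of sign occurred at strongest intervals that were not called. Under size factors the mean log2 change was -0.03 at Fgfr1, -0.01 at Spry4, -0.06 at Etv5 and -0.07 at Egr1 in Ctrl, and -0.02 at Fgf4 and -0.09 at Spry4 in Paused. With 1 library left out it ranged from -0.08 to 0.11 at Fgfr1, from -0.04 to 0.12 at Spry4, from -0.08 to 0.07 at Etv5 and from -0.06 to 0.06 at Egr1 in Ctrl, and from -0.1 to 0.00 at Fgfr1 and from -0.06 to 0.08 at Spry4 in Paused. What depth limits was not tested.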
